A study of Rattus norvegicus with 3 samples.

Results

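The cells described here form 1 cluster in each of 3 single-cell RNA libraries of the rat mandibular condyle and are called the monocyte-macrophage marker cluster. The cluster was chosen from measured values, as the 1 in each library where macrophage markers stood out against the other clusters. It is cluster 15 of 15 in the sham library, cluster 9 of 18 in the UAC library and cluster 10 of 19 in the UAC + miR-330 library, so 3 of 52 clusters. Together the 3 clusters held 15239328 of 267553056 UMIs (unique molecular identifiers, each standing for 1 captured RNA molecule). In the sham library the cluster held 3384810 of 77668015 UMIs, a share of 4.36% with an exact binomial 95% interval of 4.35% to 4.36%. In the UAC library it held 5867959 of 92629658 UMIs, and in the UAC + miR-330 library 5986559 of 97255383. By UMIs it ranked 10th in sham, 7th in UAC and 5th in UAC + miR-330 among the clusters of its library.

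The study concerns the temporomandibular joint under a changed bite and a microRNA, miR-330, given by a viral vector. All animals were wild-type SD rats whose joints received an adeno-associated virus (AAV) by injection into the temporomandibular joint, and they were kept for 8 weeks. The sham group received Vector AAV without UAC (unilateral anterior crossbite, a dental model that overloads the joint), the UAC group Vector AAV with UAC, and the UAC + miR-330 group miR-330 AAV with UAC. Each library pooled 16 condyles from 8 rats, cartilage and subchondral bone together, and age and sex are not given in the sources used here. Which cells the vectors entered is not known from the tables, and rats within a pool cannot be told apart. With 1 library per condition there is no replicate check of any difference, and the intervals given cover counting error only.

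Monocytes are made in bone marrow and circulate before they enter tissue, where they can become macrophages, dendritic cells or, in bone, osteoclasts. Resident macrophages take up dying cells and debris, and in marrow they surround maturing red cells, remove expelled nuclei and recycle the iron of haemoglobin. When tissue is loaded or injured, monocytes and macrophages release chemokines and cytokines, many of them through the transcription factor NF-κB, and these draw in further leukocytes.

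Levels are UMIs per 1000000 UMIs of the cluster (CPM) with exact Poisson 95% intervals in brackets, always in the order sham, UAC, UAC + miR-330. The word apart means that intervals did not overlap. The 5 markers that name the cluster were checked first, and 4 of them were matched; Ccr2 was not analysed here. Csf1r, the receptor for the growth factor that monocytes and macrophages need, stood at 292 (274 to 311), 296 (282 to 309.7) and 320.1 (306 to 335) CPM. These levels overlapped throughout, and 82.3%, 88.6% and 84.4% of each library's Csf1r UMIs lay in the cluster. Cd68, a lysosomal membrane protein of phagocytes, stood at 531 (506 to 556), 479 (461 to 497) and 419.9 (404 to 437) CPM. It declined in that order with the levels apart at each step, at log2 ratios of −0.15 for UAC against sham and −0.19 for UAC + miR-330 against UAC, both of which turn slightly positive on the deposited means described below. C1qa, a chain of the complement protein C1q that tissue macrophages secrete, stood at 655 (628 to 683), 169.6 (159 to 180.4) and 192 (181 to 203) CPM. Sham was far above both other libraries, and those were also apart from each other. Mrc1, the mannose receptor, stood at 89.8 (80.0 to 100.5), 34.8 (30.2 to 39.9) and 68.7 (62.2 to 75.6) CPM. The UAC library was lowest, and all 3 levels were apart. Since the grouping of cells used these genes, levels in the cluster against the rest of a library carry no test.

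The leading genes, the 15 in each library with the largest ratio of the cluster to the rest of the library among genes of at least 100 CPM, held markers of several myeloid cell types. The 3 libraries shared 8 of 15, among them Fcnb, Mal, Vcan, Mnda, Plcb1 and Ptpro. Vcan, which encodes the matrix proteoglycan versican and marks classical monocytes, was 641 (614 to 669) CPM in sham against 1.70 CPM in the rest of that library. Csf1r and Cd14 were leading genes in the UAC and UAC + miR-330 libraries only, and so was Adgre4, a monocyte adhesion receptor, which was below the minimum of 100 CPM in sham. Cd163, the scavenger receptor for haemoglobin, Vcam1, Gdf15 and Clec10a were leading genes in the sham library only, the only library in which they reached that minimum. Clec10a was near it throughout, at 102, 90.7 and 93.4 CPM. Summed over the list, the naming markers were highest in this cluster in every library, and so were resident macrophage markers.

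Of the totals of the cluster, 6.23%, 6.61% and 6.13% were mitochondrial and 13.4%, 13.5% and 11.9% ribosomal protein transcripts. Haemoglobin took 0.107% in sham, against 0.00458% in UAC and 0.00663% in UAC + miR-330. Genes detected numbered 13971, 14527 and 14565. Apart from Lyz2, the lysozyme of myeloid cells at 18909.8 (18764 to 19057), 18333 (18224 to 18443) and 20236 (20122 to 20349.9) CPM, abundant transcripts outside mitochondrial and ribosomal protein genes included Tmsb4x, an actin-binding peptide at 14931, 13258 and 11764 CPM, and Vim, the intermediate filament vimentin at 4470.3, 5110.3 and 4939 CPM.

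Between UAC and sham, the question is what the crossbite changed, and 8585 genes had at least 50 UMIs in both clusters together. Of these, 76 were at least 2-fold higher (0.885%) and 266 at least 2-fold lower (3.1%) in UAC, with a median log2 ratio over all genes of −0.06. Between UAC + miR-330 and UAC, the question is what miR-330 AAV changed under the crossbite, and of 9076 genes 301 were at least 2-fold higher (3.32%) and 79 at least 2-fold lower (0.87%). The median of all genes was 0.18 in this comparison, and ratios relative to it have this median taken off, which equals scaling by the median ratio. On the deposited means, which are scaled to another number per library, the counts were 143 higher and 186 lower for UAC against sham, and 711 higher and 45 lower for UAC + miR-330 against UAC. With the median ratio as the scale, the latter became 172 higher and 125 lower. The split between rises and falls therefore rests on the scale, and directions of lists are given with the scales under which they change sign. Counts of list genes past 2-fold, which are on the CPM scale unless said otherwise, changed in 19 of 68 list comparisons with the median ratio as scale and in 27 of 68 on the deposited means. With so few of all genes past 2-fold, a list with few or none is near the share of all genes. The 2 comparisons share the UAC library, so a value that is high or low there moves both in opposite directions.

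Of 8 tested classical monocyte genes none passed 2-fold for UAC against sham, with a median log2 ratio of 0.09. Among all genes 0.885% were past 2-fold higher and 3.1% lower, so this count is near those shares. For UAC + miR-330 against UAC 1 of 9 was past 2-fold higher and 0 lower, with a median of 0.26, which is 0.08 relative to all genes. Their sum was 22029.6, 22197 and 24536 CPM, and Lyz2 made up 85.8%, 82.6% and 82.5% of it. Without Lyz2 the sums were 3119.8, 3863 and 4300.0 CPM. Versican rose over the 3 libraries, at 641 (614 to 669), 953 (928 to 979) and 1269 (1240.3 to 1298) CPM. Each step was apart, and the log2 ratios were 0.57 and 0.41. Fn1, the matrix protein fibronectin that monocytes also make, stood at 1723 (1679 to 1768), 2013 (1977 to 2049) and 2256 (2218 to 2294) CPM. It rose in the same order, with log2 ratios of 0.22 and 0.16, the second near the median of all genes. Cd14, the co-receptor for bacterial lipopolysaccharide, was 410.1 (389 to 432), 552 (534 to 572) and 319.7 (306 to 334) CPM. It was highest in UAC and lowest in UAC + miR-330, at −0.97 relative to all genes in that comparison. F13a1, the coagulation factor subunit found in monocytes, rested on 8, 32 and 81 UMIs, and its level in UAC + miR-330 was apart from that in UAC, at a log2 ratio of 1.30.

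Genes of non-classical, patrolling monocytes summed to 1007, 1221 and 1100.0 CPM. None of 8 tested genes passed 2-fold in either comparison, and the medians were 0.36 and 0.18, the latter 0.01 relative to all genes. Nr4a1, the nuclear receptor that these cells depend on and that is also an early response gene, stood at 591 (566 to 618), 668 (648 to 689.6) and 444 (427 to 461) CPM. It was highest in UAC and lowest in UAC + miR-330, all apart. Adgre4 stood at 94.2, 125 and 139 CPM and Pou2f2, a transcription factor, at 93.7, 130.2 and 151 CPM, both lowest in sham. Ace, a surface enzyme of this subset, was at 0 UMIs in all 3 clusters.

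**Figure D1:**
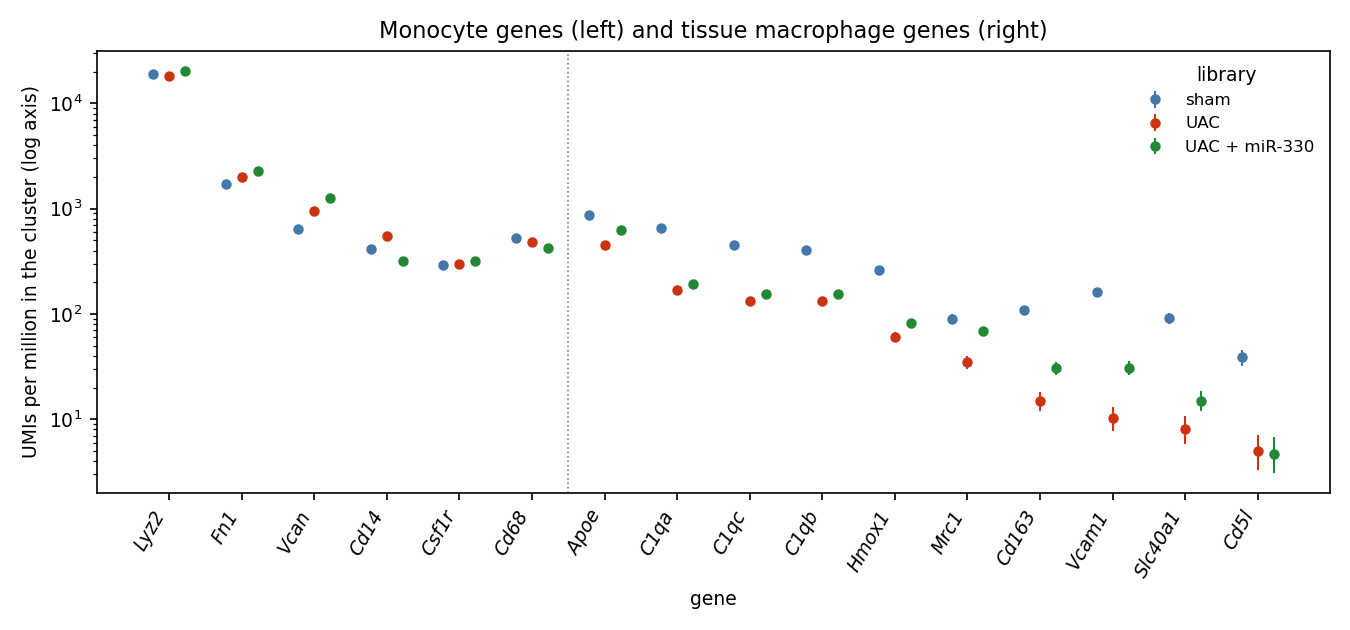
CPM in the cluster (log axis) for 6 monocyte genes and 10 tissue macrophage genes, picked with their values in view, in each of the 3 libraries; bars are exact Poisson 95% intervals, mostly smaller than the points. Csf1r lies at 292, 296 and 320 CPM, whereas C1qa, Hmox1, Cd163, Vcam1, Slc40a1 and Cd5l are highest in the sham library.

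Resident macrophage genes were lower in the UAC library. Of 18 tested list genes 11 were at least 2-fold lower in UAC than in sham and 0 higher, with a median log2 ratio of −1.44. The sums over the 20 matched genes were 3179.8, 1243 and 1598 CPM, with Apoe the most abundant in each library, and Marco was at 0 in all 3. In UAC + miR-330 against UAC, 1 of 18 was past 2-fold higher and 0 lower, which became 0 and 1 with the median ratio as scale and 5 and 0 on the deposited means. The median of 0.36 was 0.19 relative to all genes. The direction of both medians held under every scale tried. Over whole libraries, all clusters together, the same list stood at 205, 141 and 179 CPM, so it was lowest in the UAC library there as well. Whether fewer such cells or less RNA per cell lies behind a lower level cannot be told apart in cluster sums.

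The 3 chains of C1q moved together. C1qb stood at 404 (383 to 426), 134 (125 to 143) and 156 (146 to 166) CPM, and C1qc at 453 (431 to 477), 132 (123 to 142) and 156 (146 to 166) CPM. Both were highest in sham and apart from the other libraries, at log2 ratios of −1.60 and −1.78 for UAC against sham. Between UAC + miR-330 and UAC they were 0.22 and 0.24, close to the median of all genes. Apoe, the lipid carrier that macrophages secrete, stood at 863 (832 to 895), 448 (431 to 465) and 629.6 (609.6 to 650.0) CPM. It was apart at each step, lowest in UAC and between the others in UAC + miR-330, at 0.31 relative to all genes. Cd163 stood at 108 (97.1 to 119), 14.8 (11.9 to 18.3) and 30.4 (26.1 to 35.2) CPM. It was 7.24-fold lower in UAC than in sham and 2.04-fold higher in UAC + miR-330 than in UAC, with all levels apart, though the latter is under 2-fold with the median ratio as scale. Cd5l, a secreted scavenger protein under the nuclear receptor LXR, stood at 38.7 (32.4 to 45.9), 4.94 (3.31 to 7.10) and 4.68 (3.11 to 6.76) CPM. Only the sham level was apart from the others. Timd4, a receptor for dying cells, was not analysed here. Among list genes chosen after their values were seen, Lyve1, the hyaluronan receptor, went the other way, at 11.8 (8.44 to 16.1), 19.8 (16.3 to 23.7) and 36.9 (32.2 to 42.1) CPM, with each step apart. Folr2, a folate receptor, stood at 67.4 (58.9 to 76.7), 26.1 (22.1 to 30.5) and 36.4 (31.7 to 41.6) CPM, and Mertk, a receptor for dying cells, at 33.7 (27.8 to 40.5), 8.35 (6.18 to 11.0) and 8.35 (6.20 to 11.0) CPM. Folr2 was lowest in UAC with all levels apart, and Mertk was lower in UAC and UAC + miR-330 alike.

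Several genes with which macrophages handle red cells and their iron were lower in UAC. Hmox1, haem oxygenase, which opens the haem ring, stood at 262 (245 to 279.9), 60.5 (54.4 to 67.1) and 82.9 (75.7 to 90.5) CPM. Slc40a1, ferroportin, which exports iron, stood at 91.0 (81.1 to 102), 8.01 (5.89 to 10.7) and 15.03 (12.1 to 18.5) CPM. Vcam1, the adhesion molecule with which marrow macrophages hold red cell precursors, stood at 160.4 (147 to 175), 10.2 (7.80 to 13.2) and 30.7 (26.5 to 35.5) CPM. All 3 genes were highest in sham, lowest in UAC and in between in UAC + miR-330, with every pair of levels apart. Their log2 ratios were −2.11, −3.49 and −3.96 for UAC against sham, and 0.28, 0.72 and 1.40 relative to all genes for UAC + miR-330 against UAC. Spic, the transcription factor of macrophages that recycle red cells, was chosen after its values were seen and stood at 88.6 (78.9 to 99.2), 19.6 (16.2 to 23.5) and 10.4 (7.94 to 13.3) CPM. Unlike those, it was lower again in UAC + miR-330, with the levels apart. The ferritin chains, which store iron, moved less. Fth1 stood at 5983, 5626 and 4194 CPM and Ftl1 at 6706, 5684 and 4060.4 CPM, both declining in that order, though the first step of Fth1 turns slightly positive on the deposited means. Mt1, a metal-binding metallothionein, was 82.7 (73.3 to 93.0), 102 (93.7 to 110.2) and 78.3 (71.4 to 85.8) CPM, highest in UAC and apart there from both other libraries. The iron and metallothionein list summed to 13478, 11738 and 8677 CPM, with 1 of 12 tested genes past 2-fold higher and 4 lower in UAC against sham at a median of −0.15, which was 0.05 on the deposited means. The second comparison gave 1 higher (0 with the median ratio as scale), 0 lower and a median of −0.27.

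Red cell transcripts differed in the same direction as these macrophage genes. All 4 tested erythroid list genes were past 2-fold lower in UAC than in sham, with a median of −4.21, and the 9 matched genes summed to 1155, 50.4 and 69.7 CPM. The list held 3909 UMIs in sham and 296 in UAC. Genes thus reached the minimum of UMIs mostly through sham, and the count and median are no test. Hba-a1, an alpha globin, was the most abundant, at 695, 23.7 and 40.1 CPM, and no list gene was at 0 in any library. Globin also varied outside the cluster, with Hba-a1 in the rest of the libraries at 1272, 464 and 1840.0 CPM. Under UAC + miR-330 it was thus highest in the rest and low in the cluster, where the log2 ratios to UAC were 1.99 and 0.76. Between UAC + miR-330 and UAC 2 erythroid genes were tested, and none passed 2-fold, at a median of 0.42. Free RNA and doublets were not treated, and their part in these values was not tested.

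Macrophage transcripts also lay in another cluster. In each library, the cluster with the highest erythroid sum (14 in sham, 13 in UAC, 5 in UAC + miR-330) was the only other cluster with more than 100 CPM of C1q. It is called the erythroid cluster below for that sum alone, since it held other cells' transcripts too. In UAC its mast cell and basophil sum, 15298 CPM, was above its erythroid sum of 10115 CPM, and in sham the sums were 8844 and 75521 CPM. In both libraries it was also the cluster with the highest mast cell and basophil sum. C1qa, C1qb and C1qc together stood at 1513, 436 and 503 CPM in the monocyte-macrophage marker cluster. In the erythroid cluster the values were 584, 399 and 695 CPM. The monocyte-macrophage marker cluster thus held 75.7%, 62.8% and 54.3% of all C1q UMIs, and the erythroid cluster 13.4%, 33.5% and 35.5%. Within the sham library the level was higher in the former, in the UAC + miR-330 library in the latter. Csf1r stood at 9.68, 17.3 and 14.8 CPM in the erythroid clusters and Vcam1 at 29.0, 17.0 and 39.1 CPM. With the erythroid cluster added to the monocyte-macrophage marker cluster, an alternative chosen after the data were seen, the resident macrophage median was −1.33 for UAC against sham and 0.47 for UAC + miR-330 against UAC. Clusters were made in each library separately, so their borders may run differently, and the part this has in the C1q levels was not tested.

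**Figure D2:**
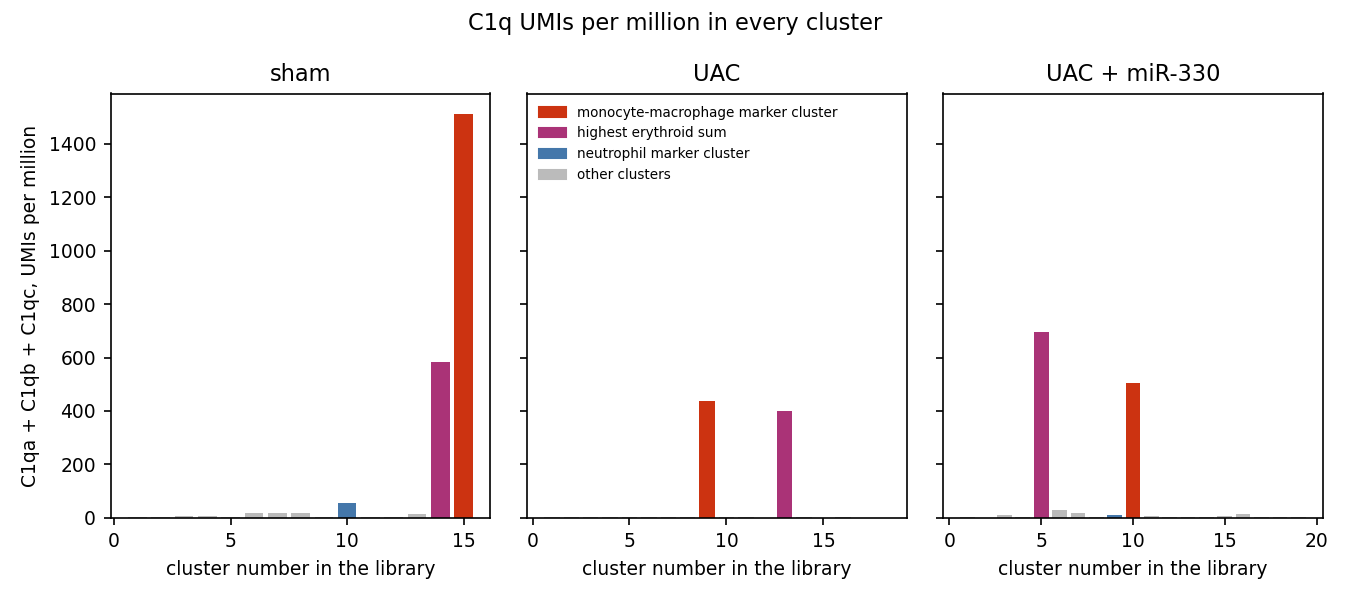
Summed C1qa, C1qb and C1qc in CPM (linear axis) in every cluster of each library. In each library only the monocyte-macrophage marker cluster and the cluster with the highest erythroid sum, which in UAC has a higher mast cell and basophil sum, stand out, at 1513 and 584 CPM in sham, 436 and 399 in UAC, and 503 and 695 in UAC + miR-330.

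Genes of alternative activation, the state that interleukin-4 induces, gave 0 of 6 past 2-fold higher and 3 lower for UAC against sham, at a median of −0.77. For UAC + miR-330 against UAC they gave 2 higher (1 with the median ratio as scale, 3 on the deposited means) and 0 lower, at a median of 0.51, or 0.33 relative to all genes. Mrc1 and Cd163 are also on the resident macrophage list. In all, the sums were 586, 530.3 and 503 CPM. Chi3l1, a secreted chitinase-like protein, ran opposite to the median at 195 (180.1 to 210.1), 334 (319 to 349) and 238 (226 to 251) CPM, highest in UAC with all levels apart.

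The conventional dendritic list ranked 1st, 2nd and 2nd among the clusters of its library, with 1 gene giving much of it. Its 16 matched genes summed to 757, 642 and 674 CPM, of which 51.3%, 62.4% and 49.7% was Id2, a regulator that many myeloid and lymphoid cells express. Of the defining genes Cd209a was at 0 UMIs in sham and UAC + miR-330 and at 1 in UAC, and Xcr1, the receptor of cross-presenting dendritic cells, picked with its values in view, had 7, 2 and 4 UMIs. Clec9a, a receptor for dead cells on the same subset, stood at 6.20 (3.84 to 9.48), 2.22 (1.18 to 3.79) and 6.18 (4.35 to 8.52) CPM. It was lowest in UAC and apart there from both others. Flt3, the growth factor receptor of dendritic and early progenitor cells, stood at 30.4 (24.8 to 36.9), 24.7 (20.9 to 29.1) and 56.1 (50.3 to 62.5) CPM. It was highest in UAC + miR-330 and apart there, at 1.00 relative to all genes, whereas sham and UAC overlapped. Irf8, a transcription factor that dendritic cells and monocytes need, stood at 161 (148 to 175), 73.6 (66.8 to 80.9) and 133 (124 to 143) CPM. It was lowest in UAC, with all levels apart. In all, 1 of 9 tested genes was past 2-fold lower in UAC than in sham (0 on the deposited means) and 0 higher, at a median of −0.30. For UAC + miR-330 against UAC 2 of 10 were higher and 1 lower, at a median of 0.12, which turned to −0.06 with the median ratio as scale. Clec9a, 1 of the 2, reached the minimum of UMIs mostly through UAC + miR-330, so its part in that count is no test.

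Plasmacytoid dendritic genes, of cells known for making type I interferon, summed to 774, 576 and 647 CPM, which was below the median of the other clusters in each library (1107, 864 and 905 CPM). Bst2, which other cells express as well, was the most abundant, and Ly6d was at 0 in all 3. Siglech, a lectin of this subset, rested on 61, 31 and 70 UMIs, or 18.0 (13.8 to 23.1), 5.28 (3.59 to 7.499) and 11.7 (9.12 to 14.8) CPM. UAC was lowest and apart from both others. Of 6 tested genes 2 were past 2-fold lower in UAC than in sham, at a median of −0.56, and 1 higher in UAC + miR-330 than in UAC, at 0.24. On the deposited means the 2 lower became 1. With the median ratio as scale the second comparison gave 0 higher and 1 lower.

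Antigen presentation by MHC class II, shared by macrophages, dendritic and B cells, was high. The list summed to 11236, 9855 and 8537 CPM, and none of its 10 tested genes passed 2-fold in either comparison. That is near the shares of all genes, 0.885% higher and 3.1% lower in the first and 3.32% and 0.87% in the second. The medians were −0.14 and −0.11, and on the deposited means they turned to 0.06 and 0.13. Cd74, the invariant chain that guides class II molecules, stood at 5194 (5118 to 5272), 4467 (4413 to 4521) and 3435 (3388 to 3482) CPM. It declined at each step, with log2 ratios of −0.22 and −0.38. RT1-Da, an alpha chain, stood at 2093, 1886 and 1738 CPM.

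Markers of other cell types were then read in the cluster. Mast cell and basophil genes were present in the sham cluster and sparse in the others. Of 13 matched genes 8 were tested for UAC against sham, and all 8 were past 2-fold lower, at a median of −5.24. The list held 2638 UMIs in sham and 116 in UAC. Genes thus reached the minimum of UMIs mostly through sham, and the count and median are no test. The list summed to 779, 19.8 and 17.5 CPM, with Mcpt10, a granule protease, the most abundant. Cpa3, a mast cell carboxypeptidase, rested on 561, 4 and 5 UMIs, and Cma1, the mast cell chymase, on 282, 1 and 2 UMIs. Tpsb2, a tryptase, had 240, 1 and 0 UMIs, and in sham 89.2% of its UMIs lay in the cluster. The list as a whole had 11.2% of its sham UMIs there and 58.3% in cluster 14. The log2 ratio of Tpsb2 for UAC against sham was −8.12, with a counting interval of −14.01 to −6.21. Tpsab1, a second tryptase, picked with its values in view, had 31, 0 and 0 UMIs and was at least 17.9-fold lower in UAC than in sham, with 0 taken as 3 UMIs. At 0 in UAC was Tpsab1, and in UAC + miR-330 Tpsab1, Tpsb2, Fcer1a and Prss34 were at 0. The rest of the UAC library did hold mast cell transcripts, most of them (90.6% of the list's UMIs) in cluster 13, which has that library's highest mast cell and basophil sum as well as its highest erythroid sum. With that cluster added, and its counterparts in the other libraries, the median became 0.54. Only 1 mast cell gene was tested for UAC + miR-330 against UAC, at −0.69. How mast cell transcripts came into the sham cluster was not tested.

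Neutrophil genes made up a small part. The late neutrophil list summed to 6486, 6335 and 4197 CPM, against 435480, 469795 and 399731 CPM in the mature neutrophil clusters. S100a8, a calcium-binding protein shared with monocytes, was the most abundant, at 3169, 2847 and 1962 CPM, and Ltf, lactoferrin, was at 0 in sham and UAC. In UAC 2 of 10 tested genes were past 2-fold higher than in sham and 0 lower, at a median of 0.09. In UAC + miR-330 0 were higher than in UAC and 3 lower, at a median of −0.49. Lcn2, a protein that binds bacterial iron carriers, stood at 18.3 (14.0 to 23.5), 52.1 (46.5 to 58.3) and 75.5 (68.7 to 82.8) CPM. It rose at each step with the levels apart, while S100a9 went from 2644 (2602 to 2686) to 1569 (1538 to 1601) CPM between UAC and UAC + miR-330. Early granulocyte genes, of neutrophil precursors, summed to 2574, 1885 and 2194 CPM, most of it Fcnb, a ficolin that is also a leading gene of the cluster. Fcnb had 6495, 10566 and 12414 UMIs in the cluster against 195, 402 and 555 in the rest. The sum with Fcnb is therefore no measure of granulocyte content. Without Fcnb the sums were 655, 84.0 and 121 CPM, and in sham most of that was RatNP-3b, a defensin at 618, 45.8 and 50.6 CPM. For UAC against sham 0 of 5 was higher and 1 lower, at a median of −0.09, which turned to 0.10 on the deposited means. In UAC + miR-330 3 of 7 were higher than in UAC (2 with the median ratio as scale) and 0 lower, at a median of 0.27. With the erythroid cluster added, that median became −2.79. The 3 were the granule proteins Mpo, Elane and Ctsg, with 28, 73 and 154 UMIs, 2, 17 and 42 UMIs and 1, 13 and 42 UMIs. Elane and Ctsg reached the minimum of UMIs mostly through UAC + miR-330, so that count and median are no test. The part of neutrophils or their free RNA in these values was not tested.

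Lymphoid and stromal markers were sparse. B cell genes summed to 819, 469 and 482 CPM, with Ebf1, a B lineage factor, the most abundant, against 9322, 8597 and 10984 CPM in the rest of the libraries. Of 6 tested, 1 was lower and 0 higher for UAC against sham, at a median of −0.62, and 1 lower and 0 higher for UAC + miR-330 against UAC, at −0.44. With the erythroid cluster added, the second median became 0.74. T and NK cell genes summed to 42.8, 35.1 and 31.6 CPM, Prf1 was at 0 in all 3, and none of 2 tested passed 2-fold (1 did for UAC against sham on either other scale), at medians of 0.07 and −0.13. Skeletal genes, of cartilage and bone, summed to 357, 169 and 144 CPM with Col1a1, a collagen chain, the most abundant, against 17946, 7982 and 7958 CPM in the rest. Of 5 tested, 4 were past 2-fold lower in UAC than in sham, at a median of −1.21, and Col1a1 went from 132 to 63.2 CPM in the cluster while in the rest it stood at 7154, 3301 and 3261 CPM. In UAC + miR-330 against UAC, 0 of 6 genes passed 2-fold (1 lower with the median ratio as scale), at a median of −0.16, or 0.07 on the deposited means. With the erythroid cluster added, that median became 2.20. Endothelial genes had 33, 14 and 25 UMIs in all, none was tested, and Emcn was at 0 throughout. The skeletal values moved with those outside the cluster, and whether free RNA carried them was not tested.

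Osteoclast genes were examined because osteoclasts come from this lineage and the samples are labelled as chondrocytes and osteoclasts. Dcstamp, which precursor cells need to fuse, was at 0 UMIs in all 3 clusters, and Calcr, the calcitonin receptor of mature osteoclasts, was at 0 in sham and UAC + miR-330. Osteoclast sums were 434, 370.1 and 269 CPM, below the highest other cluster of each library at 1062, 1388 and 1565 CPM. The list includes Mmp9, which is also on the late neutrophil and the matrix protease and inhibitor lists. Those same clusters had the highest matrix protease and inhibitor sums, at 11333, 12378 and 12906 CPM. Which osteoclast list genes made up their sums was not analysed here. Acp5, the tartrate-resistant acid phosphatase of osteoclasts and some macrophages, stood at 153 (140.1 to 167), 57.3 (51.3 to 63.7) and 25.6 (21.7 to 29.9) CPM. It made up 35.2% of the sum in sham and fell at each step with the levels apart, at log2 ratios of −1.42 and −1.16. Tcirg1, a proton pump subunit, stood at 83.9 (74.4 to 94.3), 75.2 (68.3 to 82.5) and 73.7 (66.9 to 80.9) CPM, all overlapping. Atp6v0d2, a proton pump subunit of osteoclasts and macrophages, rested on 8, 63 and 6 UMIs. It was high in UAC alone, at log2 ratios of 2.11 and −3.32. Of 11 tested genes 2 were past 2-fold higher (3 on either other scale) and 1 lower for UAC against sham, at a median of 0.33. With the erythroid cluster added, that median became −0.06. For UAC + miR-330 against UAC 0 were higher and 5 lower (3 on the deposited means), at −0.59. Among all genes 0.885% were higher and 3.1% lower in the first comparison, and 3.32% and 0.87% in the second. Atp6v0d2 reached the minimum of UMIs mostly through UAC, so its part in these counts is no test.

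CC chemokines had the lowest median of the lists with at least 4 tested genes in UAC + miR-330. Of 8 tested CC chemokines 1 was past 2-fold higher and 1 lower in UAC against sham, at a median of 0.27. In UAC + miR-330 against UAC 1 was higher and 5 were lower, at a median of −1.18, or −1.36 relative to all genes. Both directions held under every scale tried, but on the deposited means only 3 of the 5 were past 2-fold lower. In sum they reached 2024, 2744 and 1137 CPM. The cluster ranked 2nd, 3rd and 3rd for this sum, and the highest other cluster held 3315, 7974 and 5327 CPM. In the rest of the libraries the list stood at 226, 407 and 308 CPM, so it was highest in UAC there as well. Ccl3, an inflammatory chemokine of macrophages, stood at 521 (497 to 546), 1153 (1126 to 1181) and 246 (234 to 259) CPM. It was highest in UAC and lowest in UAC + miR-330, with all levels apart, and was 4.68-fold lower in the latter than in UAC. Ccl4, a close relative of Ccl3, stood at 101 (90.9 to 113), 143 (134 to 153) and 86.9 (79.6 to 94.7) CPM. UAC was apart from both others, whereas sham and UAC + miR-330 overlapped. Ccl2, the main attractant of classical monocytes, stood at 938 (906 to 971), 771 (749 to 794) and 353 (338 to 368) CPM. It differed from Ccl3 in that sham was highest, while UAC + miR-330 was again lowest. Ccl7, a related monocyte attractant, stood at 83.3 (73.9 to 93.6), 100.4 (92.4 to 109) and 42.8 (37.7 to 48.3) CPM. Sham and UAC overlapped, and UAC + miR-330 was apart from both. Ccl9, a myeloid attractant, stood at 27.5 (22.2 to 33.7), 33.2 (28.7 to 38.2) and 4.84 (3.24 to 6.96) CPM. It was 6.76-fold lower in UAC + miR-330 than in UAC, and 29 UMIs carry the lower level. Ccl6 stood at 309.9, 531 and 383 CPM, a smaller fall. Ccl24, an eosinophil attractant, went against the median in both comparisons, with 100, 12 and 100 UMIs and log2 ratios of −3.80 and 2.98. Ccl12, a monocyte attractant that is not on the list and was picked with its values in view, rose too in UAC + miR-330, with 1, 13 and 72 UMIs and a log2 ratio of 2.40 to UAC. Ccl20 was at 0 UMIs in all 3.

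Among CXC chemokines, some of which attract neutrophils, 1 of 6 tested was past 2-fold higher and 1 lower for UAC against sham, at a median of 0.15. In UAC + miR-330 0 were higher than in UAC and 3 lower (2 on the deposited means), at a median of −0.68. Both medians changed sign at a minimum of 10 UMIs, which tests more genes, and the sums were 835, 1199 and 499 CPM. Cxcl1 stood at 237 (221 to 254), 508 (489.8 to 526) and 117 (109 to 126) CPM, and Cxcl2 at 329 (310.4 to 349), 523 (505 to 542) and 228 (216 to 239.9) CPM. Both bind the neutrophil receptor Cxcr2, and both were highest in UAC and lowest in UAC + miR-330 with all levels apart. Their log2 ratios in the second comparison were −2.11 and −1.20 in the cluster, and −2.32 and −1.06 in the rest of the libraries. Cxcl3 stood at 23.3 (18.5 to 29.1), 38.3 (33.5 to 43.7) and 13.9 (11.0 to 17.2) CPM, in the same order. Pf4, a chemokine of platelets and macrophages, stood at 135 (123 to 148), 43.3 (38.1 to 48.9) and 53.1 (47.4 to 59.3) CPM, highest in sham and overlapping between the other libraries. Cxcl16, which is also a scavenger receptor, stood at 84.5 (75.0 to 94.9), 65.6 (59.2 to 72.5) and 58.6 (52.7 to 65.1) CPM, with sham apart from the others.

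**Figure D3:**
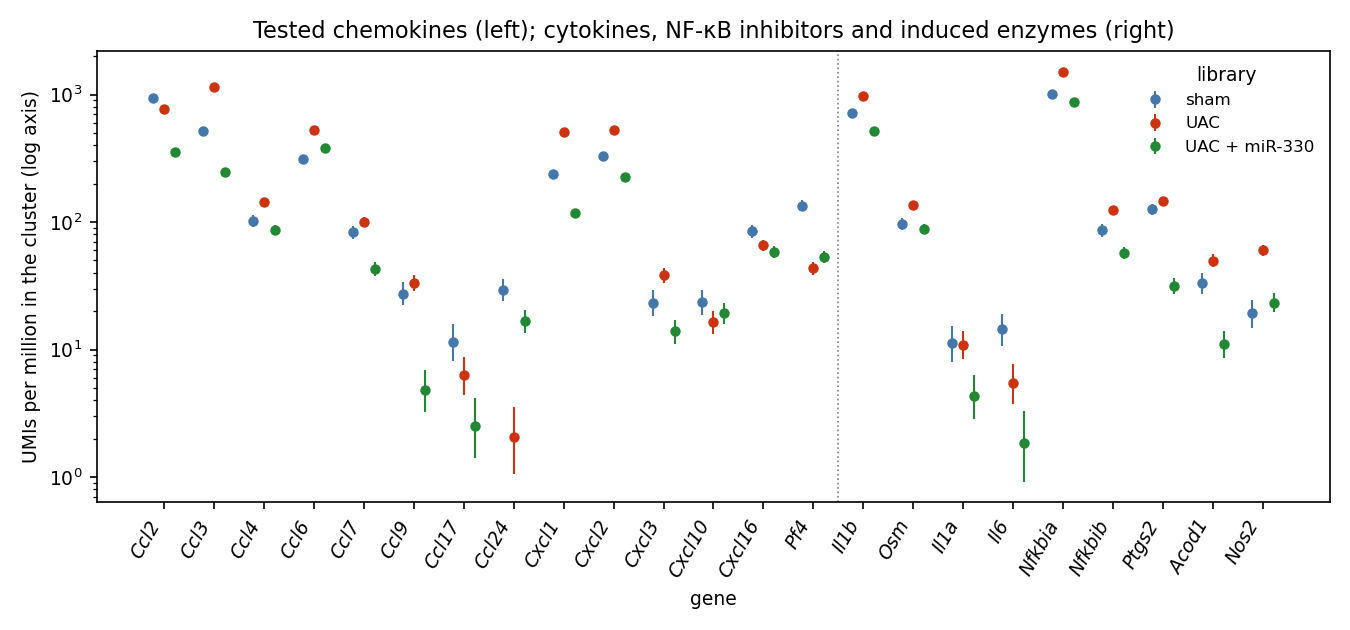
CPM in the cluster (log axis), with exact Poisson 95% intervals, for all tested genes of the CC and CXC chemokine lists (left) and for cytokines, NF-κB inhibitors and induced enzymes picked with their values in view (right). On the left UAC + miR-330 lies above UAC for 1 CC chemokine, Ccl24, and 2 CXC chemokines.

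The chemokine receptor and integrin list summed to 1738, 2243 and 2303 CPM, and none of its 13 tested genes passed 2-fold in either comparison, at medians of 0.37 and 0.09, the latter −0.09 relative to all genes. On the deposited means 2 were past 2-fold higher in the second. Cxcr4, which retains cells in marrow, stood at 523 (499 to 548), 633 (612 to 653) and 495 (478 to 514) CPM, highest in UAC with sham and UAC + miR-330 overlapping. Itga4, the integrin chain that binds Vcam1, stood at 104 (93.7 to 116), 168 (158 to 179) and 289 (276 to 303) CPM. It rose at each step, in contrast to Vcam1 itself, and in the rest of the libraries it also rose, at 127, 152 and 269 CPM. Itgb2, the chain shared by leukocyte integrins, stood at 316, 457 and 419.8 CPM.

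Among cytokines 0 of 12 tested were past 2-fold higher (1 on either other scale) and 2 lower for UAC against sham, at a median of −0.03 that turned to 0.17 on the deposited means and 0.04 with the median ratio as scale. In UAC + miR-330 1 of 11 was higher than in UAC and 2 were lower, at a median of −0.17, or 0.06 on the deposited means. Cytokine sums were 1686, 1899 and 1367 CPM, and Il1b, interleukin-1β, held 42.6%, 51.4% and 37.7% of the list's UMIs. Il1a, its relative, stood at 11.2 (7.94 to 15.4), 10.9 (8.40 to 13.9) and 4.34 (2.84 to 6.36) CPM. Sham and UAC overlapped, and UAC + miR-330 was lower and apart. Il6, the fever and acute phase cytokine, stood at 14.5 (10.7 to 19.1), 5.45 (3.73 to 7.70) and 1.84 (0.917 to 3.29) CPM. It fell at each step with the levels apart, on 49, 32 and 11 UMIs. Osm, oncostatin M, a cytokine that acts on bone and stroma, stood at 96.6 (86.4 to 108), 136 (127 to 146) and 88.7 (81.3 to 96.6) CPM, with UAC apart from the others. Tgfb1 stood at 402, 342 and 355 CPM and Tnfsf13, a survival factor for plasma cells, at 219.8, 219 and 194 CPM.

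Among genes of NF-κB subunits and their feedback regulators none of 16 tested passed 2-fold for UAC against sham, 12 were higher and 4 lower, and the median was 0.32, positive under every scale tried. In UAC + miR-330 against UAC 0 was past 2-fold higher and 1 lower (0 on the deposited means), at a median of −0.25, which was −0.01 on the deposited means. NF-κB sums were 3183, 4192 and 3263 CPM. Nfkbia, an inhibitor that NF-κB itself induces, stood at 1007 (974 to 1042), 1491 (1460.2 to 1523) and 871 (847 to 895) CPM. Nfkbib, a second inhibitor, stood at 86.6 (76.9 to 97.1), 124 (115 to 133) and 57.3 (51.4 to 63.7) CPM. Both were highest in UAC and lowest in UAC + miR-330, all apart, at log2 ratios of −0.78 and −1.11 in the second comparison. Nfkb1, a DNA-binding subunit, stood at 656 (629 to 684), 869.8 (846 to 894) and 897 (873 to 921) CPM. It was lowest in sham, and UAC and UAC + miR-330 overlapped. Rel, another subunit, stood at 173 (159.7 to 188), 223 (211 to 235) and 245 (233 to 258) CPM, with the same order. Nfkbiz, a nuclear co-regulator, stood at 325 (306 to 344), 481 (463 to 499) and 368 (353 to 384) CPM, highest in UAC and apart there.

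Since Cxcl1, Cxcl2 and Nfkbia were each highest in UAC and lowest in UAC + miR-330, promoters were read in the RefSeq sequences of build GRCr8, in windows of 300 bases around the gene start. Other genes had the same order, among them Ccl3, Cd14, Nfkbib and Nlrp3, and their promoters are not printed. The promoters below therefore give no share among such genes. The letters GGNNTTTCC, a short spelling of the NF-κB motif chosen among several that were tried, were searched on both strands. They occurred in 6.05% of all 33469 promoters, and the other spellings tried in 1.32% to 18.3%. The spelling was picked with counts in the gene lists in view, so those counts are not used. A match describes the letters and is no shown binding site, and a promoter without one says nothing about the factor. The promoters of Cxcl1 (chr14:17479272-17479571, minus strand), Cxcl2 (chr14:17467206-17467505, minus strand) and Nfkbia (chr6:78597023-78597322, minus strand) hold 2 matches each, printed in capitals.
Cxcl1: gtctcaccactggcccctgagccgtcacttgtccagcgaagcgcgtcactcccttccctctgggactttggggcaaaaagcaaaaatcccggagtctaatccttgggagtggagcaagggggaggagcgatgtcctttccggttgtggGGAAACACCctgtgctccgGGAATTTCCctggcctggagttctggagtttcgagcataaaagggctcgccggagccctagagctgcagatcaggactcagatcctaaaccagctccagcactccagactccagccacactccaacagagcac
Cxcl2: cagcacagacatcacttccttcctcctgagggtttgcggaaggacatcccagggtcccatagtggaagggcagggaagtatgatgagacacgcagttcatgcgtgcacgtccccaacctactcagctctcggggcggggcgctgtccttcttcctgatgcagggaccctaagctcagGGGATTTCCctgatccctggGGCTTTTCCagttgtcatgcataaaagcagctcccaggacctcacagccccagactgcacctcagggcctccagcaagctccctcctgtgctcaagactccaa
Nfkbia: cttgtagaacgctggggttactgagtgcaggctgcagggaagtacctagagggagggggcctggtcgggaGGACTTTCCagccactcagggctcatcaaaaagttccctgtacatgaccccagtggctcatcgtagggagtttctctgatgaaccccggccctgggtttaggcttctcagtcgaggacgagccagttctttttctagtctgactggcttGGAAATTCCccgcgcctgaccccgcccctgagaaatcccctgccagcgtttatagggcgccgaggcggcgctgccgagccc

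The agent that separates UAC + miR-330 from UAC comes in 2 mature forms, given here from RefSeq so that its seed (bases 2 to 8, in capitals) can be read. They lie on the plus strand of GRCr8 at chr1:87961227-87961248 (5p) and chr1:87961266-87961288 (3p), with different seeds. Targets in the cluster's genes were not analysed here.
rno-miR-330-5p: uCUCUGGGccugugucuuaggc
rno-miR-330-3p: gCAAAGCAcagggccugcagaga

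The Toll-like receptor and inflammasome list summed to 1754, 2052 and 1735 CPM, the highest of any cluster in each library. None of 15 tested genes passed 2-fold for UAC against sham, at a median of 0.14, and 1 of 16 was higher and 0 lower for UAC + miR-330 against UAC, at −0.07, or 0.17 on the deposited means. The 1 higher became 0 with the median ratio as scale. Nlrp3, the inflammasome sensor, stood at 352 (333 to 373), 456 (438 to 473) and 269 (256 to 282) CPM. It was highest in UAC and lowest in UAC + miR-330, all apart. Pycard, the adaptor that joins the sensor to caspase-1, ran opposite, at 287 (269 to 305), 221 (209 to 233) and 339.8 (325 to 355) CPM. Tlr8, a sensor of single-stranded RNA, stood at 10.9 (7.70 to 15.1), 17.2 (14.0 to 20.9) and 35.1 (30.5 to 40.2) CPM, highest in UAC + miR-330 and apart there from UAC. Nos2, inducible nitric oxide synthase, stood at 19.2 (14.8 to 24.5), 59.99 (53.9 to 66.6) and 23.4 (19.7 to 27.6) CPM. UAC was 3.10-fold above sham and apart from both others, while in the rest of the libraries Nos2 went on rising, at 20.3, 44.1 and 58.7 CPM. Acod1, which makes itaconate, stood at 33.1 (27.2 to 39.8), 49.8 (44.2 to 55.8) and 11.0 (8.53 to 14.0) CPM, with all levels apart and UAC + miR-330 lowest.

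Of the leukotriene and prostaglandin genes 0 of 9 were past 2-fold higher and 3 lower for UAC against sham, at a median of −0.14, and 1 was higher and 1 lower for UAC + miR-330 against UAC, at 0.15. The first median turned to 0.05 on the deposited means and the second to −0.03 with the median ratio as scale, and the sums were 1280.4, 1219.7 and 1154 CPM. Alox5ap, the helper of 5-lipoxygenase, stood at 368 (348 to 389), 388 (372 to 404) and 365 (349.5 to 380.3) CPM, all overlapping. Ltc4s, leukotriene C4 synthase, stood at 6.80 (4.31 to 10.2), 4.09 (2.62 to 6.09) and 24.7 (20.9 to 29.0) CPM, and its level in UAC + miR-330 was apart from both others. Hpgds, a prostaglandin D2 synthase, stood at 74.7 (65.8 to 84.5), 9.20 (6.91 to 12.0) and 12.7 (10.0 to 15.9) CPM, high in sham only. Mast cell and basophil genes were likewise highest in the sham cluster, at 779 CPM against 19.8 CPM in UAC. Their part in these values was not tested.

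Phagocytic and degradative genes had few or no members past 2-fold, as did all genes (0.885% higher and 3.1% lower, then 3.32% and 0.87%). The Fc receptor and activating lectin list summed to 5815, 5916 and 4952 CPM, with 1 of 14 past 2-fold higher and 0 lower for UAC against sham at a median of −0.02, and 0 either way for UAC + miR-330 against UAC at −0.22. On the deposited means these were 0.18 and 0.01, and with the median ratio as scale the first was 0.05. Clec4e, a receptor for mycobacterial lipid and dead cells, stood at 7.09 (4.54 to 10.6), 24.7 (20.9 to 29.1) and 19.5 (16.2 to 23.4) CPM, with sham lower and apart. Tyrobp, the signalling adaptor of many such receptors, stood at 2841, 2803 and 2448 CPM. The lysosome list summed to 8594, 7819 and 7013 CPM, the highest of any cluster in each library, and none of 19 tested genes passed 2-fold, at medians of −0.17 and −0.14, or 0.03 and 0.10 on the deposited means. On the CPM scale 11 of the 19 were lower and apart for UAC against sham, and 1 was higher and apart. For UAC + miR-330 against UAC 9 were lower and apart, and 0 higher. Psap, the precursor of lipid-degrading cofactors, stood at 2105 (2056 to 2154), 1870.2 (1835 to 1905) and 1699 (1666 to 1732) CPM, declining at each step, though both log2 ratios turn slightly positive on the deposited means. Ctsb, a protease, stood at 897, 933 and 709.9 CPM, lowest in UAC + miR-330.

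The lipid handling list gave 0 of 13 past 2-fold higher and 2 lower for UAC against sham, at a median of −0.50, and 0 higher (1 on the deposited means) and 1 lower for UAC + miR-330 against UAC, at −0.06, or 0.18 on the deposited means, and it summed to 2805, 2719 and 2357 CPM. Fabp4, a fatty acid carrier, stood at 365 (345 to 386), 71.4 (64.7 to 78.6) and 22.9 (19.2 to 27.1) CPM. It fell at each step with the levels apart, and UAC + miR-330 was 3.11-fold below UAC. Plin2, the coat protein of lipid droplets, stood at 808 (778 to 839), 1321 (1292 to 1351) and 898 (874 to 922) CPM, highest in UAC and apart there. Nr1h3, which encodes LXRα, a sterol sensor of macrophages, stood at 26.0 (20.9 to 32.0), 10.2 (7.80 to 13.2) and 10.2 (7.79 to 13.1) CPM, with sham apart and the others overlapping. Gdf15, a stress hormone, stood at 207 (192 to 223), 57.6 (51.6 to 64.1) and 23.2 (19.5 to 27.4) CPM, falling at each step with the levels apart.

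Of 18 genes of the M-CSF pathway and lineage factor list 0 were past 2-fold higher and 2 lower for UAC against sham, at a median of 0.03, and 1 was higher and 0 lower for UAC + miR-330 against UAC, at 0.10, or −0.08 relative to all genes. With the median ratio as scale the counts became 0 higher and 1 lower in both comparisons. On the deposited means they were 0 and 0 in the first, and 2 and 0 in the second. Sums of the list were 6987, 8169.6 and 6603 CPM. Cebpb, a factor of inflammatory and differentiating myeloid cells, stood at 2483 (2430.1 to 2537), 3008 (2964 to 3053) and 1925 (1889.7 to 1960.1) CPM. It was highest in UAC and lowest in UAC + miR-330, all apart, whereas Runx1, a factor of blood cell formation, was highest in UAC + miR-330 at 619, 575 and 718 CPM. Zeb2, which maintains macrophage identity, stood at 1099 (1064 to 1135), 1815 (1781 to 1849.9) and 1379 (1349 to 1409) CPM, highest in UAC and apart at each step. Bach1, a haem-regulated repressor of Hmox1, stood at 13.6 (9.95 to 18.1), 18.4 (15.1 to 22.2) and 41.6 (36.6 to 47.1) CPM. UAC + miR-330 was apart and highest, and in the rest of the libraries Bach1 rose as well, at 4.85, 7.11 and 18.0 CPM.

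Immediate early genes summed to 6649, 6714 and 6191 CPM, with 0 of 17 past 2-fold higher and 1 lower for UAC against sham at a median of 0.01, and 0 higher and 1 lower for UAC + miR-330 against UAC at 0.14, or −0.03 relative to all genes. Egr1, a growth response factor, stood at 109 (98.5 to 121), 25.4 (21.5 to 29.8) and 42.4 (37.4 to 48.0) CPM, lowest in UAC with all levels apart. Junb, a subunit of AP-1, stood at 1203 (1166 to 1241), 1268 (1239 to 1297) and 791 (768 to 814) CPM, lowest in UAC + miR-330 and overlapping between the others. Dusp2, a phosphatase that ends MAP kinase signals, stood at 68.2 (59.7 to 77.6), 66.0 (59.5 to 72.9) and 24.6 (20.7 to 28.9) CPM, with UAC + miR-330 lower and apart. Heat shock genes summed to 3049, 3061 and 3293 CPM, and none of 8 tested passed 2-fold, at medians of 0.12 and 0.06, the latter −0.12 relative to all genes. Interferon response genes summed to 984, 898 and 841 CPM, with 1 of 15 past 2-fold higher and 1 lower for UAC against sham at −0.10, and 0 of 16 either way for UAC + miR-330 against UAC at −0.13, or 0.10 and 0.11 on the deposited means. The 1 lower in the first comparison became 0 on the deposited means. In the second, the 0 of 16 became 2 lower with the median ratio as scale and 2 higher on the deposited means. Gbp5, a guanylate-binding protein, stood at 20.4 (15.9 to 25.8), 55.7 (49.8 to 62.1) and 36.6 (31.9 to 41.8) CPM, all apart and highest in UAC. Isg15, a ubiquitin-like protein, stood at 25.4 (20.3 to 31.4), 11.6 (8.999 to 14.7) and 8.19 (6.06 to 10.8) CPM, with sham highest and the others overlapping. Oasl stood at 126 (114 to 138), 120.5 (112 to 129.7) and 63.0 (56.8 to 69.7) CPM, with UAC + miR-330 lower and apart.

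Of 13 cell cycle genes none passed 2-fold for UAC against sham, 12 were lower and 1 higher, and the median was −0.59. Against UAC, 3 were past 2-fold higher in UAC + miR-330 (2 with the median ratio as scale, 6 on the deposited means) and 0 lower, at a median of 0.72, or 0.54 relative to all genes. The sign of both medians held under every scale tried. Cell cycle sums were 1829, 1294 and 1786 CPM in the cluster and 5089, 4354 and 4341 CPM in the rest. Mki67, a protein of dividing cells, stood at 129.7 (118 to 142), 86.4 (79.0 to 94.3) and 216 (204 to 228) CPM. It was lowest in UAC and highest in UAC + miR-330, all apart, and in the rest it stood at 260.0, 248 and 486 CPM. Rrm2, which supplies nucleotides for DNA synthesis, rested on 26, 46 and 173 UMIs. Hmgb2, a chromatin protein, stood at 884 (852 to 916), 619 (599 to 639) and 790.4 (768 to 813) CPM, lowest in UAC. Hist1h1e, a linker histone, stood at 78.9 (69.7 to 88.9), 57.3 (51.3 to 63.7) and 260.1 (247 to 273) CPM in the cluster and 332, 356 and 834 CPM in the rest, so it was highest in UAC + miR-330 on both sides.

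Metabolic and matrix genes complete the lists. Glycolysis genes summed to 4382, 4522 and 3849 CPM, none of 16 tested passed 2-fold, and the medians were 0.06 and −0.14, the latter 0.10 on the deposited means. In the second, 1 was past 2-fold lower with the median ratio as scale and 1 higher on the deposited means. Aldoa, an aldolase, stood at 842 (812 to 874), 881 (857 to 905) and 599 (579.9 to 619) CPM, lowest in UAC + miR-330 and overlapping between the others. Matrix protease and inhibitor genes summed to 886, 1130.2 and 1009.8 CPM. For UAC against sham 1 of 9 was past 2-fold higher and 0 lower, at a median of 0.36, and for UAC + miR-330 against UAC 0 were higher and 2 lower, at −0.02, or 0.22 on the deposited means. Plaur, the urokinase receptor, stood at 558 (533 to 584), 796 (773 to 819) and 719 (698 to 741) CPM, lowest in sham and apart at each step. Mmp8, a collagenase that neutrophils carry, stood at 52.3 (44.9 to 60.6), 75.0 (68.1 to 82.3) and 18.4 (15.1 to 22.1) CPM, highest in UAC and lowest in UAC + miR-330, while the mature neutrophil clusters held 2195, 1984 and 3183 CPM. For the 5 naming markers the medians over the 4 matched were −0.76, with 2 past 2-fold lower and 0 higher, and 0.15, with 0 either way (1 higher on the deposited means), the latter turning to −0.03 with the median ratio as scale.

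**Figure D4:**
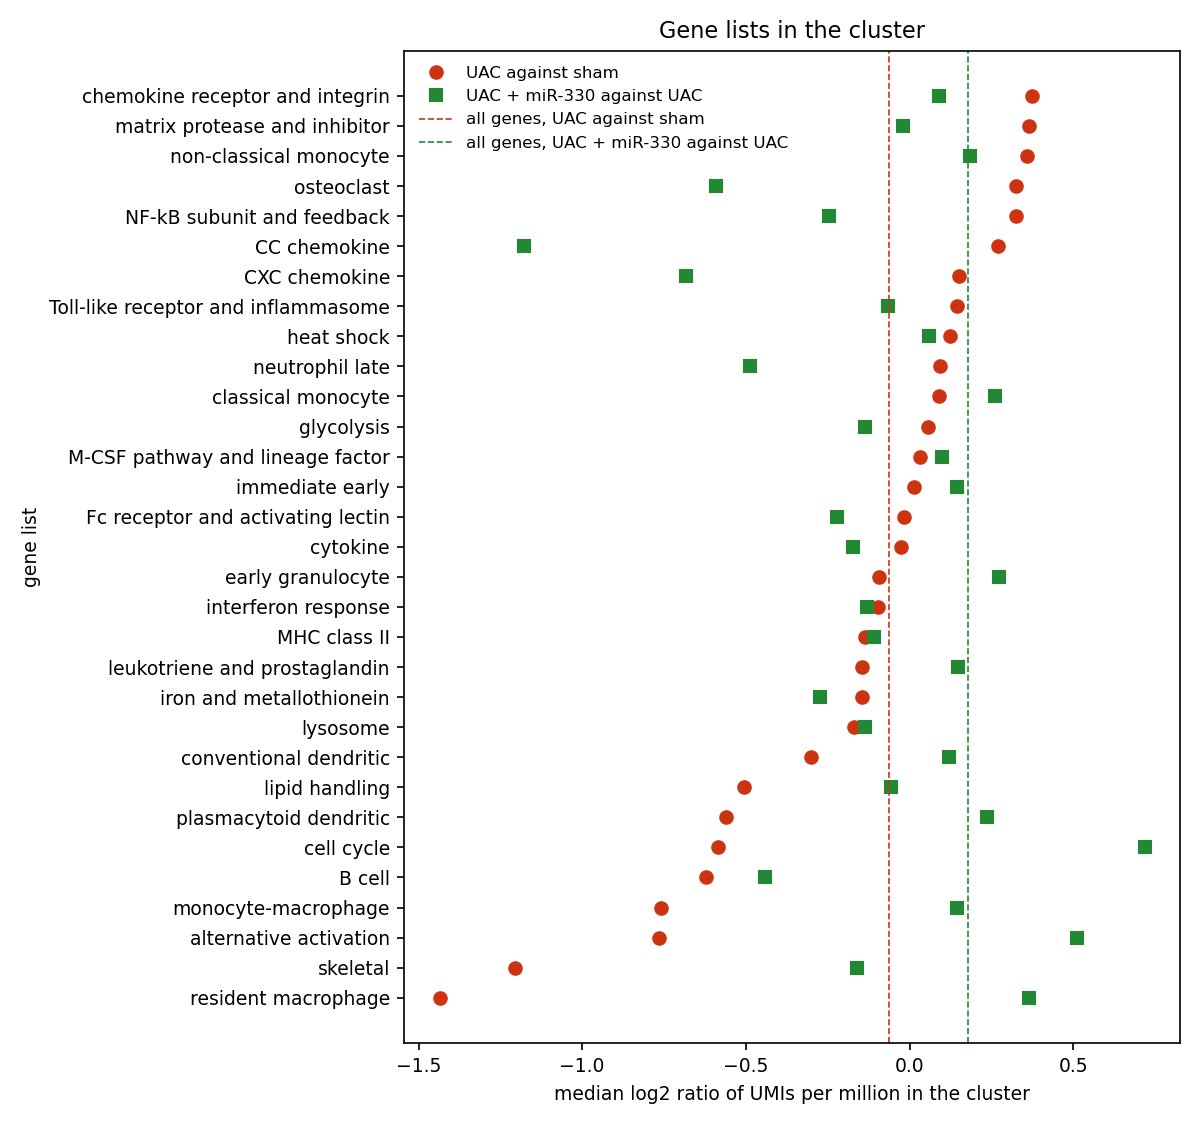
Median log2 ratio of the tested genes of each list in the cluster for UAC against sham (circles) and UAC + miR-330 against UAC (squares), for lists with at least 4 tested genes in both; dashed lines are the medians of all genes, −0.06 and 0.18. Among the lists shown, resident macrophage genes have the lowest median for UAC against sham, −1.44, and CC chemokines the lowest for UAC + miR-330 against UAC, −1.18. Not shown are mast cell and basophil (−5.24) and erythroid genes (−4.21 for UAC against sham), with 1 and 2 genes tested in the second comparison.

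Among single genes with at least 100 UMIs in the compared clusters together, the largest rise in UAC was that of RGD1562667, with 0, 180 and 25 UMIs, at least 34.6-fold above sham with 0 taken as 3 UMIs. Also among the 10 largest were Il1r1 and Cd300c2. Il1r1, the receptor of interleukin-1, stood at 8.27 (5.50 to 12.0), 28.3 (24.1 to 32.9) and 25.6 (21.7 to 29.9) CPM, with sham lower and apart, and Cd300c2, a member of the CD300 receptor family, at 5.32 (3.15 to 8.40), 16.7 (13.6 to 20.4) and 20.0 (16.6 to 24.0) CPM. Both stayed within overlapping intervals between UAC and UAC + miR-330, whereas RGD1561730, also among the 10, rose and fell, at 3.84 (2.04 to 6.57), 16.7 (13.6 to 20.4) and 3.84 (2.44 to 5.76) CPM. AABR07000398.1, a locus without a name, stood at 138, 105 and 464 CPM in the cluster and 170.1, 108 and 557 CPM in the rest, so its rise in UAC + miR-330 was library-wide.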

How the data were processed

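RNA of 3 pooled libraries (sham, UAC, UAC + miR-330; 1 per group) was measured in single cells. The signal values used are the mean counts per gene and cluster as deposited: the authors summed a gene's UMIs over the cells of a cluster and divided the sum by 1 number per cluster. The same tables hold log2 fold changes and p-values of each cluster against the other clusters of its library, which were not used. The submitters' processing notes name Cell Ranger 7.0, STAR, Seurat 4.0.1, GRCh38 and mm10, whereas the tables carry rat Ensembl identifiers.

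Whole UMIs were recovered by dividing each mean by the smallest positive mean of its column, and every quotient lay within 0.001 of a whole number. The cluster held 3384810, 5867959 and 5986559 UMIs. Levels are CPM with exact Poisson intervals, shares have exact binomial intervals, and ratios have exact conditional-binomial counting intervals, all at 95%. With 1 library per group no test was run. A gene counted as changed at 2-fold or more where the compared clusters held at least 50 UMIs of it together, with 0.5 UMI added to each count.

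The members and the 35 gene lists (15 of cell type markers and 20 of processes) were chosen with earlier results of these data known. Of 439 symbols in the lists, 416 matched by name, 4 by a synonym in RefSeq GRCr8 and 19 did not match. Sequences are from RefSeq GRCr8 too. Genes named were the 5 markers with Il1b and Epor, the 4 members of each list with most UMIs and its 2 largest changes each way, the 10 largest rises and falls per comparison, the 15 leading genes per library and the 10 genes with most UMIs. The text leaves out many of them, and says where another gene was picked.

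Alternatives were minimums of 10 and 200 UMIs, 5 UMIs added, scaling by the median ratio, the deposited means, totals that leave out 4 gene classes (haemoglobin, immunoglobulin, mitochondrial, ribosomal protein), and adding the dendritic and mast cell clusters. Adding the cluster with the highest erythroid sum (the erythroid cluster) was chosen after seeing the data. Python 3.11.15, numpy 2.4.6, pandas 2.3.3, scipy 1.17.1 and matplotlib 3.10.9 were used.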

Additional observations from a re-analysis of the deposited data

How the results depend on the processing

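The counts of genes past 2-fold moved with the choices made. For UAC against sham, where 76 genes were higher and 266 lower, a minimum of 200 UMIs gave 25 higher and 91 lower, and a minimum of 10 UMIs gave 245 and 806, since the minimum sets how many genes are tested. With 5 UMIs added 47 were higher, on the deposited means 143, and with the dendritic and mast cell clusters added 533 were higher and 1404 lower. For UAC + miR-330 against UAC, where 301 were higher and 79 lower, the same minimums gave 82 higher and 31 lower, and 715 and 298. Scaling by the median ratio gave 172 and 125, the deposited means 711 and 45, the added dendritic and mast cell clusters 1294 and 405, and the added erythroid cluster 585 and 152. The share of library UMIs in the cluster was 4.32%, 6.15% and 5.99% in sham, UAC and UAC + miR-330 without the named gene classes. It was 12.6%, 12.5% and 13.4% with the dendritic and mast cell clusters and 6.35%, 10.03% and 9.07% with the erythroid cluster.

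The rule for dendritic and mast cell clusters took a cluster rich in B cell markers in sham (cluster 2) and in UAC + miR-330 (cluster 14), so this alternative adds different cells in different libraries. Under it, for UAC against sham, the log2 ratio became 0.35 for Alox5, 1.21 for Cma1, 0.23 for Cpa3, 0.89 for Csf1, 0.18 for Egr1, −0.67 for Gbp5, 0.95 for Irf8, 1.62 for Mcpt10, 1.09 for Mcpt2, 1.92 for Mcpt8l2 and 1.98 for Siglech, and the mast cell and basophil median 1.19, all of opposite sign to the cluster alone. For UAC + miR-330 against UAC the sign also changed for Csf1 (−0.22), Dusp2 (1.74), Flt3 (−0.20), Igll1 (5.01), Siglech (−1.57) and Tnfsf9 (0.30). Over both comparisons 114 of 399 gene values changed sign under it. With the erythroid cluster added, in sham and UAC also the cluster with the highest mast cell and basophil sum, an alternative chosen after seeing the data, the sign changed for UAC against sham for Cma1 (0.54), Csf1 (0.33), Mcpt10 (0.96), Mcpt2 (0.44), Mcpt8l2 (1.26) and the mast cell and basophil median (0.54). For UAC + miR-330 against UAC it changed for Csf1 (−1.70), Ctsg (−5.16), Elane (−5.59), Igll1 (1.02) and Mpo (−3.68). List medians turned there too, among them early granulocyte (−2.79), skeletal (2.20) and B cell (0.74). Over both comparisons 14 of 64 list medians and 48 of 399 gene values changed sign with the erythroid cluster added. The cause was not tested.

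Of 64 list medians the sign was kept in 64 with 5 UMIs added, 61 at a minimum of 10 UMIs, 55 with scaling by the median ratio, 46 on the deposited means, 41 with the dendritic and mast cell clusters and 50 with the erythroid cluster. At a minimum of 10 UMIs both CXC chemokine medians changed sign. A minimum of 200 UMIs kept 51 of 58, and totals without the named gene classes 63 of 63. The 60 named genes past 2-fold for UAC against sham and the 49 for UAC + miR-330 against UAC had the same direction wherever they had a value under the 6 settings that kept the cluster. Past 2-fold stayed 55 of 60 and 44 of 49 on the deposited means, and 58 of 60 and 44 of 49 with scaling by the median ratio. Over all 399 gene values, the sign changed for 67 on the deposited means and 35 with scaling by the median ratio. With the dendritic and mast cell clusters added, 49 of 60 and 43 of 49 named genes kept their direction, and 39 and 34 stayed past 2-fold. With the erythroid cluster added, 55 of 60 and 44 of 49 kept it, and 49 and 38 stayed past 2-fold.

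Depth limits what the cluster can show. At 3384810 UMIs in sham, 3 UMIs stand for 0.886 CPM, so rare transcripts such as Xcr1 could not be compared.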
